A study of Mus musculus with 12 samples.

Results

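The genes described here mark hepatocytes around the portal vein of the mouse liver. The list held 10 genes, Gls2, Hal, Sds, Cyp2f2, Hsd17b13, Aldh1b1, Uroc1, Etnppl, Ctsc and Pigr, chosen by name, and every probe set annotated to them was taken. Of these, 8 genes were read by 14 probe sets, out of 18193 genes and 45101 probe sets on the array. Gls2 and Sds were not analysed here. RNA was measured in 6 hepatocellular carcinomas (HCC) that had arisen without treatment and in 6 normal livers serving as controls. All samples came from B6C3F1 mice, a hybrid of the C57BL/6 and C3H strains, kept to 2 years of age in a National Toxicology Program bioassay. None had been treated, no transgene or engineered allele is named, and each sample was read on 1 single-colour Affymetrix array. The labels give no sex, and they do not say whether a tumour and a normal liver, or several tumours, came from the same animal. The p-values therefore measure the spread between these samples.

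Blood enters the liver lobule at the portal vein and leaves at the central vein, and hepatocytes along that path differ in their enzymes. Hepatocytes near the portal vein receive oxygen- and nutrient-rich blood and carry out amino acid breakdown, urea synthesis and gluconeogenesis, while those near the central vein make glutamine and hold much of the drug metabolism. Wnt and beta-catenin signalling, active around the central vein, is known to switch on the central programme and to keep the portal programme low. Among the genes measured here, Hal and Uroc1 encode histidine ammonia-lyase and urocanase, which act in order in histidine breakdown. Etnppl encodes ethanolamine-phosphate phospho-lyase, Cyp2f2 a cytochrome P450 that oxidises naphthalene and other small aromatic compounds, and Aldh1b1 a mitochondrial aldehyde dehydrogenase. Hsd17b13 encodes a hepatocyte protein of lipid droplets, Ctsc the lysosomal protease cathepsin C, and Pigr the receptor that carries polymeric immunoglobulin A across epithelial cells.

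The stretches just before the transcription start are shown for 6 of the 8 genes. Cyp2f2, Etnppl and Pigr were lower in every tumour than in every normal liver. Hal, Aldh1b1 and Hsd17b13 were far below the normal range in some tumours and close to it or above it in others. Each stretch holds 250 bases, 5′ to 3′, from RefSeq, build GRCm38.p6. They lie at chr7:27119705-27119954 on the plus strand for Cyp2f2, chr3:130617198-130617447 on the plus strand for Etnppl, chr1:130826434-130826683 on the plus strand for Pigr, chr10:93488518-93488767 on the plus strand for Hal, chr4:45798772-45799021 on the plus strand for Aldh1b1 and chr5:103977389-103977638 on the minus strand for Hsd17b13. Capitals mark CTTTGA or its reverse complement TCAAAG, the core of the site bound by TCF/LEF factors, the partners of beta-catenin.
Cyp2f2: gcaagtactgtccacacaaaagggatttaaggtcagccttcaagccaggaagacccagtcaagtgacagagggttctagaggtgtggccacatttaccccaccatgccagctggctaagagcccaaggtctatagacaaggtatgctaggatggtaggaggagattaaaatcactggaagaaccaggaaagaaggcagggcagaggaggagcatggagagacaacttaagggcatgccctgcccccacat
Etnppl: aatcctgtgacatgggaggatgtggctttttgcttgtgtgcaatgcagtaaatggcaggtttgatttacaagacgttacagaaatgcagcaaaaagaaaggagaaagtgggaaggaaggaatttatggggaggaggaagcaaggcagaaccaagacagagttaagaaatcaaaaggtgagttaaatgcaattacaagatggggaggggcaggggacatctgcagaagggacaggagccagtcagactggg
Pigr: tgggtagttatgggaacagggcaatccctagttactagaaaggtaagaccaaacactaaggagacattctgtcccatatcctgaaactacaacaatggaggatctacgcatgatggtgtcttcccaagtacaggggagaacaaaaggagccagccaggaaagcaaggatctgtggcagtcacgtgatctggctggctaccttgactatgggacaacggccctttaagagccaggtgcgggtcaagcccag
Hal: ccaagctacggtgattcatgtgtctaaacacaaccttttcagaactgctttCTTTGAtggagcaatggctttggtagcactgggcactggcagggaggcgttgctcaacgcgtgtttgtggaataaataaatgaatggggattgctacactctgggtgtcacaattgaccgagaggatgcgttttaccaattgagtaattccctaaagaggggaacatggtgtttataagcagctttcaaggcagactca
Aldh1b1: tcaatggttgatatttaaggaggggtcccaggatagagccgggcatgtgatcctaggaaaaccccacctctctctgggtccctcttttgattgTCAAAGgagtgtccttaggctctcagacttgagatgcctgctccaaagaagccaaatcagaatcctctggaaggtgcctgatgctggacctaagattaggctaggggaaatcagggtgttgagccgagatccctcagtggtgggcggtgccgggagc
Hsd17b13: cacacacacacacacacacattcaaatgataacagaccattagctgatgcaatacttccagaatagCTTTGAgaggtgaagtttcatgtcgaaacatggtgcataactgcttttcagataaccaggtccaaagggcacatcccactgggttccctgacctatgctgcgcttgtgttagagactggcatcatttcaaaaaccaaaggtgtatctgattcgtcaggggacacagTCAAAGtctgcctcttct
All 8 measured genes had an entry, with 9 starts, since Etnppl has 2. The core was found in Hal, Aldh1b1, Hsd17b13 and Uroc1, which is 4 of 8 genes and 4 of their 9 stretches. It was found in 13.8% of the 32851 promoter stretches of the same length. Hsd17b13 held it 2 times, and Cyp2f2, Etnppl, Pigr and Ctsc did not hold these letters in this window. The genes not shown do not follow the grouping of those shown. Ctsc, without the core, also lay below the normal range in some tumours and above it in others. Uroc1, with the core, lay below the range or inside it and in no tumour above it. TGACG, a core of the cyclic AMP response element, searched on both strands, was found in Hsd17b13 and in 17.8% of all stretches. CAAAGTCC, a form of the HNF4 site searched likewise, was in none of the 8 genes and in 1.2% of all stretches. These matches describe letters in a window and were not tested as binding sites.

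The deposited intensities shared the same trimmed mean on all arrays, and 14.2% to 18.1% of probe sets on each array lay under an intensity of 16. Levels below are log2(intensity + 16) after quantile normalization, so that 4 is the lowest level the scale can show. Of 8 measured hepatocyte markers, such as Alb, Ttr and Apob, 0 passed the test, and the median difference was 0.05. All but Hnf4a lay near the top of the scale, with Apoa1 at 16.06 on every array but HCC 5, so they show that hepatocyte RNA was abundant and say little about a change. Hnf4a ran from 13.13 to 13.55 in normal livers and from 13.27 to 13.58 in HCC. The markers' summed intensity ran from 302321 to 390548 in normal livers and from 338234 to 438732 in HCC. Xist, transcribed from the inactive X chromosome, and the Y-linked Eif2s3y, Kdm5d and Uty divided both groups alike. Normal 1, normal 3, HCC 1 and HCC 4 had a Y-linked mean between 4.17 and 4.85, and the other 4 normal livers and 4 HCC had one between 8.96 and 9.77. HCC 1 and HCC 4 also stood apart from the other tumours in most of the genes below, so the difference of each of the 8 genes is also given without them. This choice was made after the data were seen and from the values tested. The adjusted p-values without them therefore only describe the arrays that remain.

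The first comparison set the periportal genes of the 6 tumours against those of the 6 normal livers. Cyp2f2, Etnppl and Pigr fell, and none of the 8 rose. limma called 3 of 8 lower at a Benjamini-Hochberg adjusted p under 0.05, against 7.24% of all 18193 genes, and 0 of 8 higher, against 6.48%. The same 3 genes were those in which the groups did not overlap, against 4.50% of all genes lower in that way. The median difference of the 8 genes was -1.45 on the log2 scale, and that of all genes was -0.04. In bulk tissue, fewer cells of a type and less RNA per cell cannot be told apart.

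**Figure D1:**
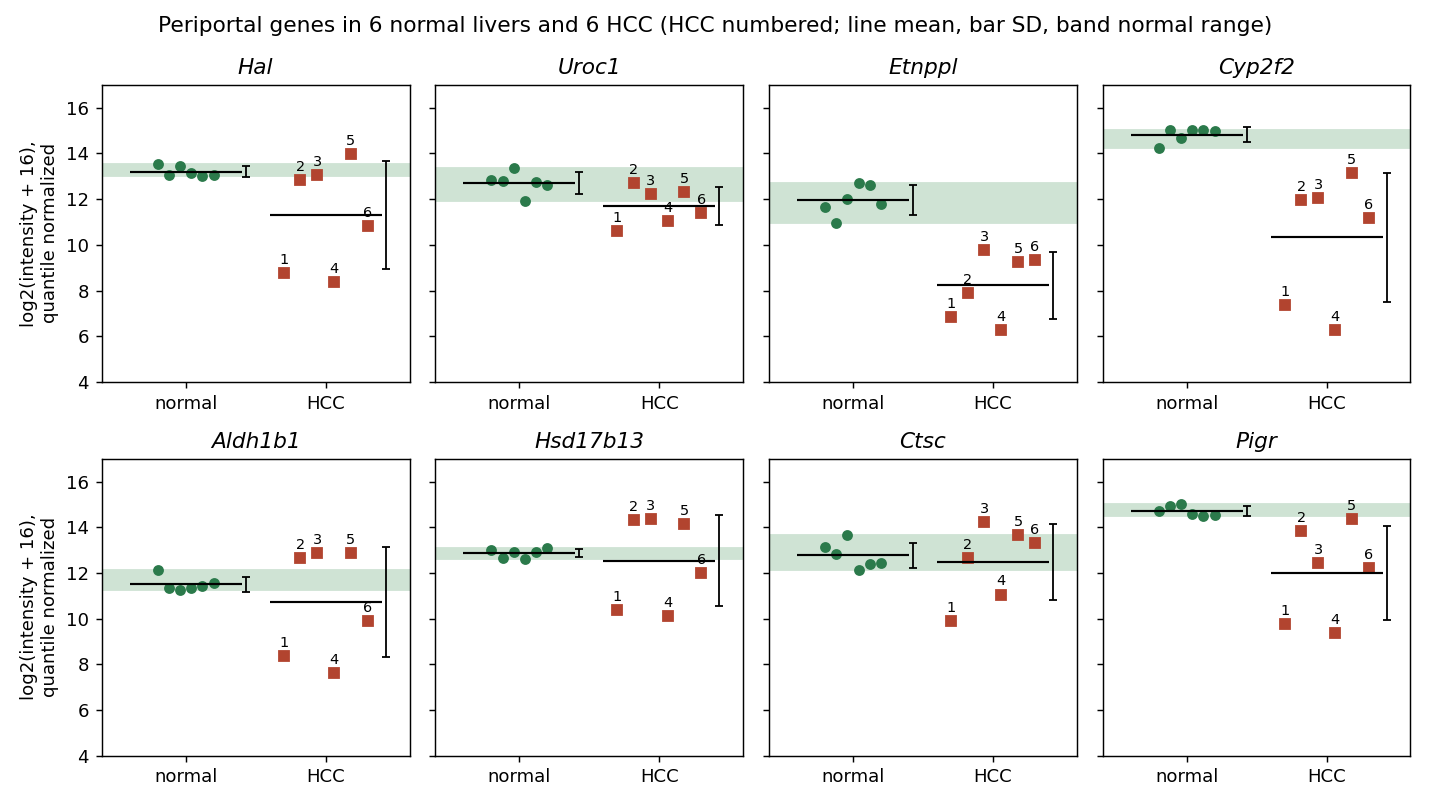
Level of each gene, as log2(intensity + 16) after quantile normalization, in 6 normal livers (circles) and 6 HCC (squares, numbered), with the mean (line), the SD (bar) and the range of normal livers (band). Cyp2f2, Etnppl and Pigr lie below the band in all 6 HCC, while HCC 1 and HCC 4 are below it in every gene.

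Hal, the entry enzyme of histidine breakdown, was at log2 levels of 13.54, 13.08, 13.44, 13.13, 13.01 and 13.04 in normal livers 1 to 6. In HCC 1 to 6 it was at 8.79, 12.83, 13.06, 8.37, 13.99 and 10.82. HCC 1, HCC 4 and HCC 6 were far below all normal livers and HCC 2 just below them, HCC 3 was inside the range, and HCC 5 was above it. The group difference was -1.90 ± 0.87 (SE, n = 6 each, limma adjusted p = 0.169) and did not pass, and it was -0.53 without HCC 1 and HCC 4 (adjusted p = 0.529). In intensity, HCC 4 had 3.25% and HCC 5 had 159% of the normal mean.

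Uroc1, the next enzyme, was at 12.83, 12.78, 13.38, 11.92, 12.73 and 12.62 in the normal livers and at 10.61, 12.72, 12.22, 11.04, 12.32 and 11.38 in HCC 1 to 6. The same 3 tumours, HCC 1, HCC 4 and HCC 6, lay below the normal range, and the other 3 lay inside it. The difference of -0.996 ± 0.357 did not pass (SE, limma adjusted p = 0.0848), and it passed without HCC 2 (adjusted p = 0.0351). Without HCC 1 and HCC 4 it was -0.55 (adjusted p = 0.276). A second probe set of Uroc1 gave -1.83 ± 0.61 (limma adjusted p = 0.0759 over all probe sets).

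The pathway continues with Amdhd1, imidazolonepropionase, and Ftcd, which passes the last carbon unit of histidine to folate. Relative to the normal mean, Amdhd1 was at -3.08, -2.69 and -2.70 for HCC 1, HCC 4 and HCC 6, with HCC 2, HCC 3 and HCC 5 between -0.34 and 0.12. For the former tumours Ftcd had values of -2.07, -1.56 and -1.87, and it lay between 0.07 and 0.53 for the rest. All 4 enzymes were thus below every normal liver in HCC 1, HCC 4 and HCC 6. None of the 4 passed the test between groups, with differences of -1.45 ± 0.56 for Amdhd1 (SE, limma adjusted p = 0.108, and -0.74 without HCC 1 and HCC 4) and -0.78 ± 0.44 for Ftcd (adjusted p = 0.276).

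**Figure D2:**
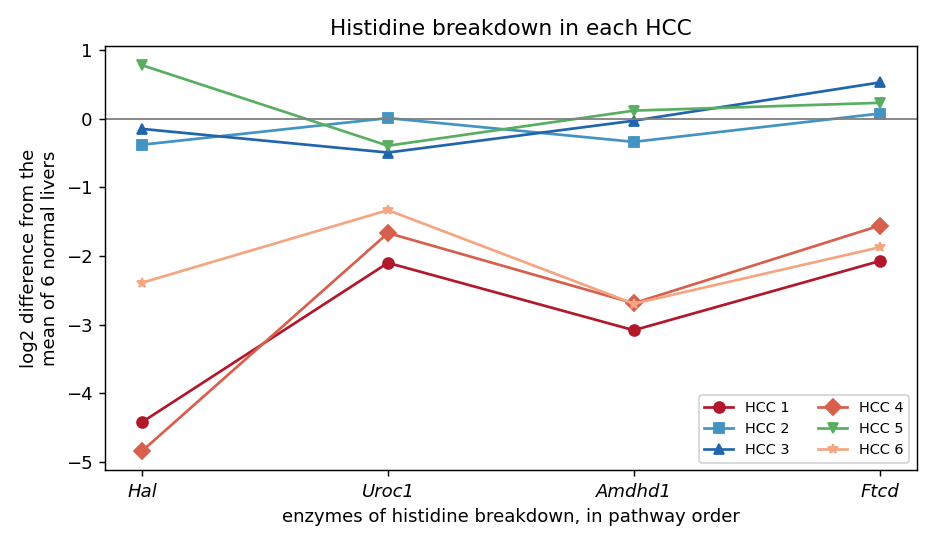
Log2 difference of each HCC from the mean of the 6 normal livers (0 line) for the 4 enzymes of histidine breakdown, in the order of the pathway; lines join the values of 1 tumour. HCC 1, HCC 4 and HCC 6 lie between -4.84 and -1.33, and HCC 2, HCC 3 and HCC 5 between -0.49 and 0.78.

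Etnppl, which splits phosphoethanolamine, was at 11.65, 10.97, 12.01, 12.73, 12.60 and 11.79 in the normal livers. The tumours were at 6.83, 7.91, 9.79, 6.27, 9.24 and 9.33. Every HCC was below every normal liver, and HCC 2, which was close to normal for Hal and Uroc1, was the third lowest for Etnppl. Etnppl fell by 3.73 ± 0.59 on the log2 scale, a 13.3-fold difference (SE, n = 6 each, limma adjusted p = 0.00164). Its second probe set fell by 2.38 ± 0.48 (adjusted p = 0.0078 over all probe sets). Without HCC 1 and HCC 4 the difference was -2.89 (limma adjusted p = 0.00247).

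Cyp2f2 showed the widest differences. Its level was 14.22, 15.02, 14.69, 15.01, 15.03 and 14.97 in the normal livers and 7.37, 11.94, 12.06, 6.25, 13.14 and 11.17 in HCC 1 to 6. No tumour reached the normal range, and HCC 1 and HCC 4 lay far below the other 4. In intensity HCC 1 had 0.512% and HCC 4 had 0.195% of the normal mean, HCC 6 had 7.75%, HCC 2 and HCC 3 had 13% and 14%, and HCC 5 had 28.5%. Cyp2f2 fell by 4.50 ± 1.03 on the log2 scale (SE, n = 6 each, limma adjusted p = 0.0131). This is a 22.6-fold difference taken from the mean log2 levels, not a ratio of mean intensities. Without HCC 1 and HCC 4, its lowest tumours, it was at -2.74 (limma adjusted p = 0.000967), a smaller difference with less spread among the HCC.

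Aldh1b1, which clears aldehydes in mitochondria, was at 12.14, 11.35, 11.24, 11.33, 11.41 and 11.56 in the normal livers. In the tumours it was at 8.36, 12.67, 12.88, 7.63, 12.88 and 9.88. HCC 2, HCC 3 and HCC 5 were above every normal liver and HCC 1, HCC 4 and HCC 6 below every one, so that no tumour lay inside the range. The means differed by -0.79 ± 0.89, with a 95% interval from -2.72 to 1.13 (limma adjusted p = 0.615). Without HCC 1 and HCC 4 the sign turned, to 0.57 (adjusted p = 0.548).

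Hsd17b13, the lipid droplet protein, divided the tumours in the same way. Its level was 13.01, 12.65, 12.93, 12.62, 12.91 and 13.10 in the normal livers and 10.36, 14.32, 14.36, 10.11, 14.12 and 11.98 in the tumours. HCC 2, HCC 3 and HCC 5 held 260%, 280% and 218% of the normal mean intensity, and HCC 1, HCC 4 and HCC 6 held 16.8%, 13.9% and 48.2%. The group difference was -0.33 ± 0.74, with an interval from -1.93 to 1.26 (limma adjusted p = 0.815), and it was 0.10 without HCC 1, 0.15 without HCC 4 and 0.82 without both. A dimmer second probe set gave -0.71 ± 0.39 (adjusted p = 0.292 over all probe sets). On it HCC 2, at 10.18, lay inside the normal range of 9.79 to 10.33, and HCC 3 and HCC 5, at 10.36 and 10.38, lay just above it, so the higher levels in these 3 tumours rest on the brighter probe set.

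Ctsc, which activates granule proteases of immune cells, was at 13.13, 12.83, 13.66, 12.14, 12.39 and 12.44 in the normal livers and at 9.89, 12.66, 14.22, 11.05, 13.66 and 13.33 in the tumours. HCC 1 and HCC 4 were below every normal liver, HCC 3 and HCC 5 were above every one, HCC 5 only narrowly, and HCC 2 and HCC 6 were inside the range. The difference was -0.29 ± 0.65 (SE, limma adjusted p = 0.814), with signs turned to 0.22 without HCC 1 and 0.70 without HCC 1 and HCC 4. Its other 2 probe sets gave -0.19 and -0.07 (adjusted p = 0.915 and 0.931 over all probe sets).

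Pigr, the receptor for polymeric immunoglobulin A, was at 14.73, 14.95, 15.00, 14.60, 14.48 and 14.52 in the normal livers and at 9.77, 13.82, 12.45, 9.35, 14.35 and 12.21 in the tumours. All tumours were below all normal livers, HCC 5 by a narrow margin, and HCC 1 and HCC 4 had 3.49% and 2.54% of the normal mean intensity. Pigr fell by 2.72 ± 0.76 (SE, n = 6 each, limma adjusted p = 0.0316), and its second probe set by 2.89 ± 0.83 (adjusted p = 0.0422 over all probe sets). Without HCC 1 and HCC 4 the difference was -1.50 (adjusted p = 0.0324). The call was lost without any of 8 arrays, normal 1 to normal 6, HCC 1 or HCC 6 (adjusted p from 0.0535 to 0.0606).

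**Figure D3:**
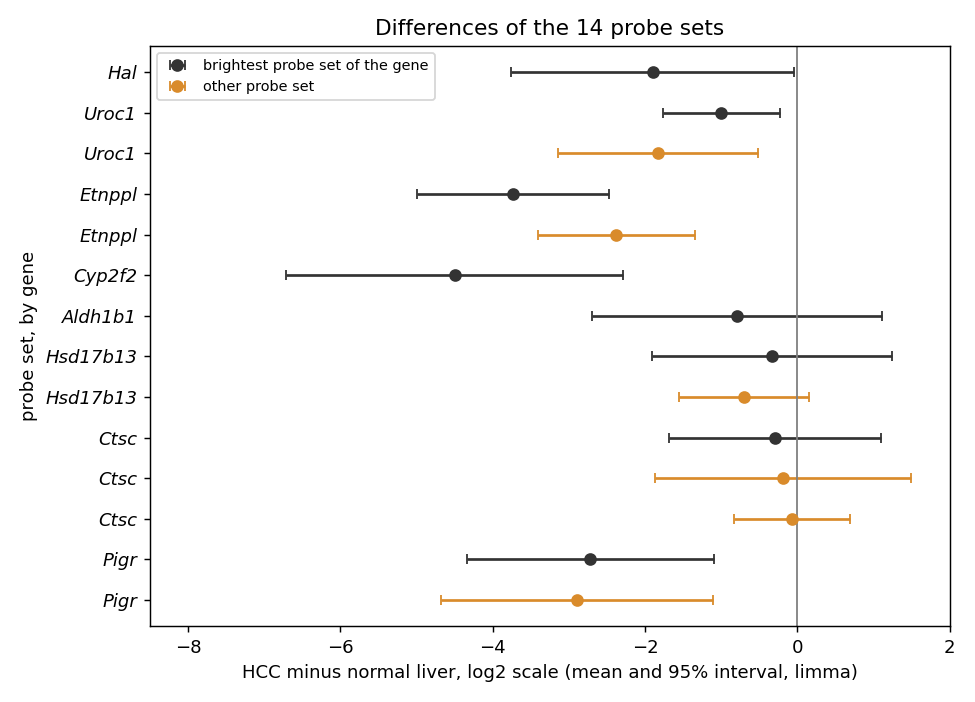
Difference between HCC and normal liver on the log2 scale for each of the 14 probe sets (point, with its 95% interval from limma), grouped by gene. Both probe sets of Etnppl and of Pigr lie below 0 with their intervals, and the intervals of Aldh1b1, Hsd17b13 and Ctsc include 0.

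The second comparison set each tumour against the range of the 6 normal livers. With 1 array per tumour it has no test. HCC 1 and HCC 4 had all 8 genes below every normal liver, where 24.1% and 26.4% of all genes were below. HCC 6 had 7 below, with 30.0% of all genes, and Ctsc inside the range. HCC 2 had 4 below and 2 above, HCC 3 had 3 below and 3 above, and HCC 5 had 3 below and 4 above. The shares of all genes in these 3 tumours were 21.8%, 25.6% and 24.3% below and 20.1%, 22.9% and 20.8% above. In HCC 1, HCC 4 and HCC 6, 22.2%, 21.7% and 24.8% of all genes were above the range, and none of the 8 was.

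Across the 8 genes the median difference from the normal mean was -3.78, -4.36 and -2.01 for HCC 1, HCC 4 and HCC 6. For HCC 2, HCC 3 and HCC 5 it was -0.24, -0.32 and 0.21, while the median of all genes lay between -0.09 and -0.01 in the 6 tumours. Within HCC 2, HCC 3 and HCC 5 the 8 genes did not move as a block. Aldh1b1 and Hsd17b13 stood 1.16 to 1.49 above the normal mean in these tumours, and Cyp2f2 and Etnppl were at -4.05 to -1.68.

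**Figure D4:**
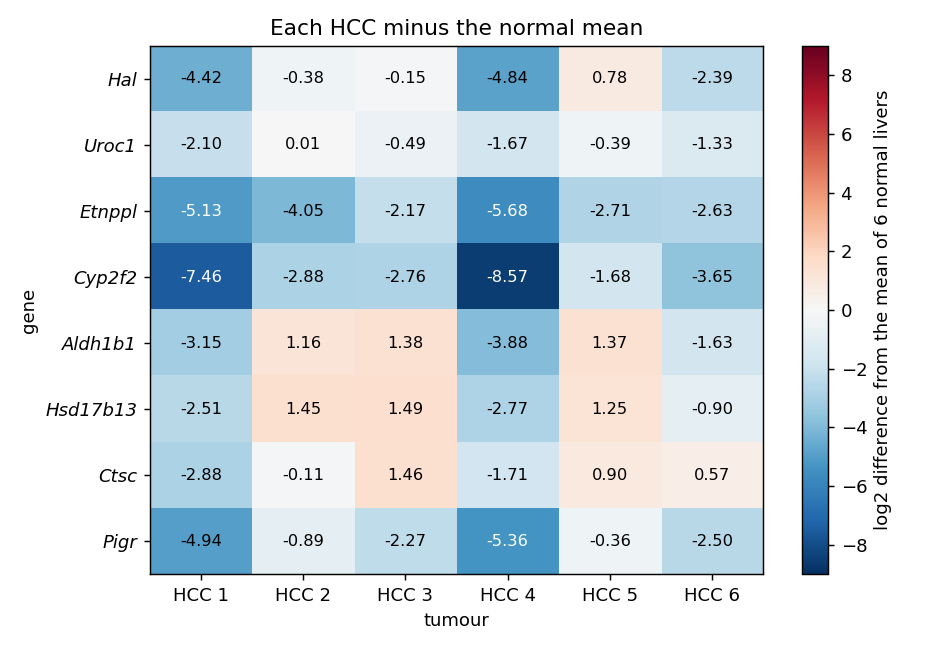
Log2 difference of each HCC (columns) from the mean of the 6 normal livers for each gene (rows), with blue for lower and red for higher. HCC 1 and HCC 4 are lower in all 8 genes, from -8.57 to -1.67, and Aldh1b1 and Hsd17b13 are higher in HCC 2, HCC 3 and HCC 5.

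The differences among tumours can be set beside markers of the opposite end of the lobule. Glul, glutamine synthetase of hepatocytes at the central vein, was at 15.17, 15.10 and 14.62 in HCC 1, HCC 4 and HCC 6, above the normal range of 13.29 to 14.33. It was at 11.75, 11.40 and 12.03 in HCC 2, HCC 3 and HCC 5, below that range. Axin2, the feedback inhibitor of Wnt signalling, had the same order of high and low tumours, with 11.76, 10.34 and 9.14 in the first 3 and 6.24, 5.06 and 6.36 in the others. Cyp2e1, a pericentral cytochrome P450, was at 15.71, 15.62 and 15.23 in the former and 14.19, 13.06 and 14.44 in the latter. Its normal range was 15.47 to 15.71, so HCC 1 was barely above it, HCC 4 inside it and HCC 6 below it. That range is near the top of the scale, so Cyp2e1 says little about a rise. Of 19 pericentral genes measured, 17, 16 and 10 were above every normal liver in HCC 1, HCC 4 and HCC 6, and 18, 18 and 17 were below every one in HCC 2, HCC 3 and HCC 5. In HCC 1, HCC 4 and HCC 6, 2, 0 and 4 of the pericentral genes were below every normal liver. The tumours with Glul above its normal range, HCC 1, HCC 4 and HCC 6, had 8, 8 and 7 of the 8 periportal genes below every normal liver. HCC 2, HCC 3 and HCC 5 had 4, 3 and 3. Of the 15 other periportal genes measured, 12, 11 and 8 were below in the former and 7, 4 and 5 in the latter, so HCC 6 and HCC 2 were close. Etnppl in HCC 6, at 9.33, was above HCC 2 and HCC 5, at 7.91 and 9.24, and below HCC 3, at 9.79. With the tumours in separate clusters, no correlation coefficient is given for Glul and the periportal genes.

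**Figure D5:**
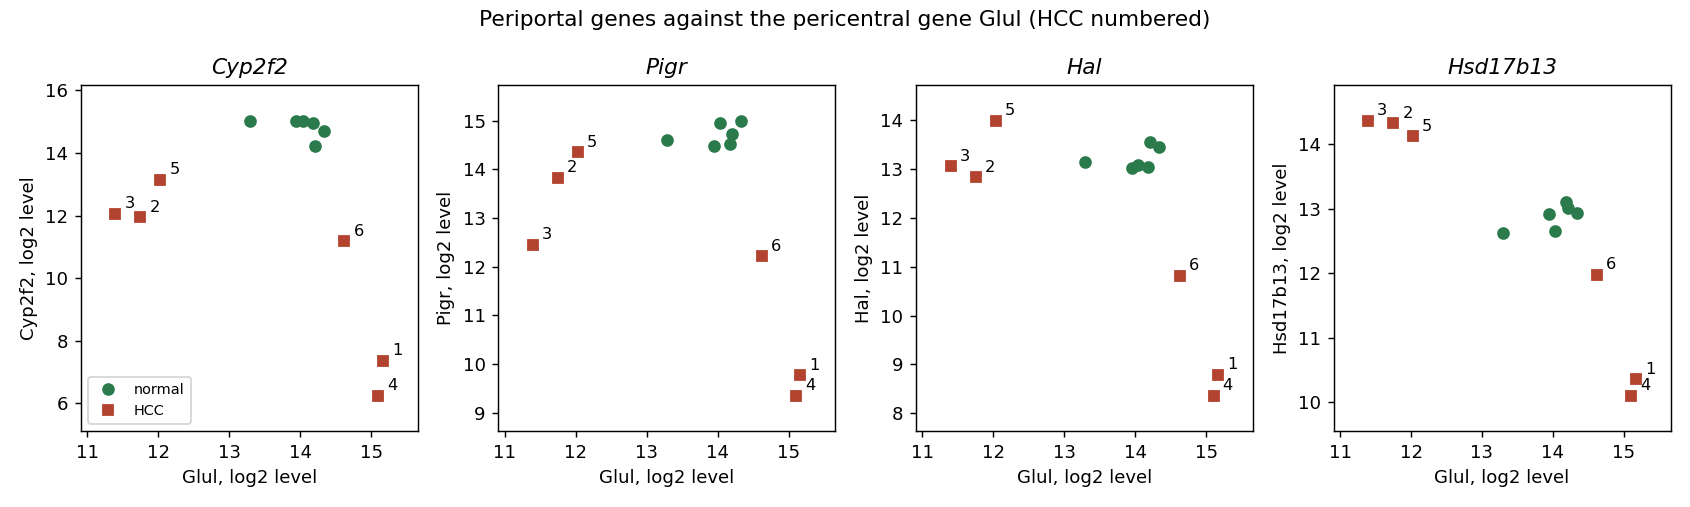
Levels of Cyp2f2, Pigr, Hal and Hsd17b13 against the level of Glul, all as log2(intensity + 16), in 6 normal livers (circles) and 6 HCC (squares, numbered). HCC 1 and HCC 4 lie at the right and bottom of each panel. HCC 6 lies at the right, with levels between theirs and those of the other tumours. HCC 2, HCC 3 and HCC 5 lie at the left, below the normal livers in Cyp2f2 and Pigr and above them in Hsd17b13.

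The third comparison asked whether the difference between HCC and normal liver depended on Y-linked signal. The difference was lower in the arrays without Y-linked signal (2 HCC and 2 normal livers) than in those with it (4 and 4) for all 8 genes. The median interaction of the 8 genes was 3.91 on the log2 scale, against -0.0036 over all genes. limma called 2 of 8, against 0.154% of all genes. Cyp2f2 was at -2.93 with Y-linked signal and -7.65 without it (interaction 4.72 ± 0.65, SE, limma adjusted p = 0.0249). Ctsc was at 1.02 with it and -2.92 without it (interaction 3.94 ± 0.61, adjusted p = 0.0406). The call of Ctsc was also lost with a pseudocount of 1 (adjusted p = 0.0715) and with the mean of its probe sets (adjusted p = 0.0597). The call of Cyp2f2 was lost without any of the 6 normal livers or HCC 4 (adjusted p up to 0.134), and that of Ctsc without any of the 6 normal livers, HCC 1 or HCC 5 (adjusted p up to 0.203). HCC 1 and HCC 4 are the only tumours without Y-linked signal and have the highest Glul of the 6. HCC 6 has Y-linked signal, but its Glul was above every normal liver and 7 of the 8 genes were below every one. No other tumour combines Y-linked signal with high Glul, so the 2 conditions cannot be told apart here.

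Within the arrays with Y-linked signal alone, limma called Cyp2f2 (adjusted p = 0.00467) and Etnppl at -2.95 (adjusted p = 0.0147), and Pigr at -1.43 did not pass (adjusted p = 0.107). Of all genes, 3.09% were called lower and 3.16% higher in these arrays. Within the 2 and 2 arrays without it, 5 of 8 genes passed, Cyp2f2, Etnppl, Pigr, Hal and Hsd17b13, all lower, with adjusted p from 0.0319 to 0.0497. Of all genes, 0.203% were called lower and 0.220% higher there. Normal livers also differed somewhat with Y-linked signal. Normal 1 and normal 3 were the highest normal livers for Hal, Uroc1 and Ctsc and the lowest for Cyp2f2, and their mean was higher by 0.42, 0.59 and 0.94 and lower by 0.55 in turn. These were 2 and 4 arrays and were not tested.

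The spread among tumours was compared with that among normal livers. The SD among HCC was 2.81 for Cyp2f2, 2.41 for Aldh1b1, 2.36 for Hal, 2.05 for Pigr and 2.00 for Hsd17b13, larger than in at least 99.6% of all genes. For Ctsc, Etnppl and Uroc1 it was 1.67, 1.45 and 0.83. The ratio of the HCC to the normal SD had a median of 8.08 over the 8 genes and 1.25 over all genes, and ran from 1.76 for Uroc1 to 10.5 for Hal. limma on absolute deviations from the group median called 0 of 8 at an adjusted p under 0.05, against 0.324% of all genes called more variable in HCC and 0.0550% called less variable. Unadjusted, 7 of 8 had p under 0.05, as did 9.09% of all genes, and the smallest adjusted value was 0.0567 for Aldh1b1.

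Other genes of the same zone and pathways were read from lists. The counts here and in the lists below stand beside 7.24% of all genes called lower and 6.48% called higher. No list was tested as a set. Of 15 other periportal genes measured, limma called 3 lower and 2 higher, with a median difference of -0.86. Mfsd2a, a lysophospholipid carrier, fell by 2.34 ± 0.54 (SE, adjusted p = 0.0131), and G6pc, glucose-6-phosphatase, fell by 1.90 ± 0.34 (adjusted p = 0.00331). Cdh1, E-cadherin, rose by 4.68 ± 0.22 (limma adjusted p = 1.55e-07), and stood 4.25 to 5.32 above the normal mean in every tumour. G6pc was lower than every normal liver in all tumours but HCC 6, at 10.72 to 11.24. Mfsd2a did not pass without HCC 1 and HCC 4 (-1.96, adjusted p = 0.0577).

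In the list of glutamine, ammonia and urea genes 5 of 15 fell and none rose. Asl, argininosuccinate lyase, fell by 1.43 ± 0.14 (SE, limma adjusted p = 6.35e-05), by a like amount in each tumour (-1.65 to -1.20). Otc, ornithine transcarbamylase, fell by 1.35 (adjusted p = 0.0131), and the amino acid carrier Slc38a4 by 0.89 (adjusted p = 0.045), a call lost without any of 9 arrays (adjusted p up to 0.0902). Neither Otc nor Slc38a4 passed without HCC 1 and HCC 4 (adjusted p = 0.0522 and 0.153). In serine, glycine and threonine metabolism 6 of 12 fell and 3 rose. Dmgdh, which breaks down dimethylglycine, fell by 1.91 ± 0.20 (SE, adjusted p = 0.000128), while the serine synthesis enzymes Psat1 and Phgdh rose by 2.83 and 2.30 (adjusted p = 0.000739 and 0.00315).

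Of 8 other genes of ethanolamine phosphate and phospholipid metabolism, 2 fell and 1 rose. Chpt1, choline phosphotransferase, fell by 2.37 (adjusted p = 0.000816), Pcyt2, of phosphatidylethanolamine synthesis, by 0.69 (adjusted p = 0.0126), and choline kinase Chka rose by 1.46 (adjusted p = 0.00724). Of 13 other lipid droplet genes, 3 fell and 2 rose, led by the lipase Mgll at -2.14 (adjusted p = 0.00658), the droplet fusion protein Cidec at 1.83 (adjusted p = 0.019) and the lipase inhibitor G0s2 at -1.64 (adjusted p = 0.0233, and 0.0538 without normal 4). The calls of Pcyt2 and G0s2 were lost without HCC 1 and HCC 4 (adjusted p = 0.0509 and 0.0513). Among 12 relatives of the 8 genes, Cyp2b10 fell by 3.20 and Aldh1a1 by 1.69 (adjusted p = 0.00695 and 0.00905), and 10 did not pass. Of 19 pericentral genes 2 fell. Cyp7a1, the rate-limiting enzyme of bile acid synthesis, fell by 3.41 (adjusted p = 0.0112), and Cyp27a1, also of bile acid synthesis, fell by 1.29 (adjusted p = 0.0302, lost without any of 9 arrays, up to 0.0618). With the mean of all its probe sets Cyp27a1 was at -0.44 (adjusted p = 0.202).

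Of 14 measured regulators of hepatocyte genes, 2 fell and 1 rose. Beta-catenin itself (Ctnnb1) rose by 0.63 ± 0.10 (SE, limma adjusted p = 0.0019), and the hepatocyte factor Cebpa fell by 0.71 (adjusted p = 0.0129). Tcf7l2, the main TCF factor of hepatocytes, was at -0.52 (adjusted p = 0.0398), a call lost without any of 11 arrays (up to 0.0819) and under both other scalings, the deposited one (0.158) and median centring (0.0919). With the mean of its probe sets it was at -0.25 (adjusted p = 0.54). Hnf4a differed by 0.09 ± 0.12 (adjusted p = 0.675) and the glucagon receptor Gcgr by -0.24 ± 0.18 (adjusted p = 0.424), neither past the test. These 2 were chosen for display after their values were seen.

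Ctsc and Pigr are also made by other cells, and their markers were read beside them. Of 10 myeloid markers, Cd14 rose by 3.21 and the Kupffer cell markers Clec4f and Timd4 fell by 2.36 and 2.11. Their summed intensity ran from 5379 to 11671 in normal livers and from 5035 to 30493 in HCC, where it was lowest in HCC 1 and highest in HCC 6. Of 7 lymphocyte and plasma cell markers and 6 bile duct markers none passed. Their sums were 546 to 2064 and 439 to 687 in normal livers and 781 to 3547 and 252 to 1176 in HCC, with the highest of both in HCC 5 and the lowest bile duct sum in HCC 4. No marker of these 3 lists lay under an intensity of 16 on all 12 arrays. The myeloid sums of HCC 1 to 6 were 5035, 6600, 14520, 8899, 17172 and 30493, beside Ctsc at 9.89, 12.66, 14.22, 11.05, 13.66 and 13.33. HCC 3, HCC 5 and HCC 6 had the highest sums and the highest Ctsc, and HCC 1 had the lowest of both. The order differed elsewhere, as Ctsc was highest in HCC 3, and HCC 2 had more Ctsc than HCC 4 with a lower sum. The part of these cells in the results was not tested. Of 10 other genes of immunoglobulin A transport and induction of Pigr, 3 rose and none fell, namely the receptors Il1r1 by 1.95 (adjusted p = 0.043, lost without any of 8 arrays, up to 0.0897) and Ifngr1 by 1.53 (adjusted p = 0.000101) and the NF-kappaB subunit Relb by 1.65 (adjusted p = 0.00249). Il1r1 was at 0.88 with the mean of its probe sets (adjusted p = 0.104) and at 1.06 without HCC 1 and HCC 4 (adjusted p = 0.0739). Of 6 proteases that Ctsc activates, Prtn3 rose by 2.98 (adjusted p = 0.00628) and the others did not pass.

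Genes with the most similar pattern to each of the 8 were found by Pearson's r over the 12 arrays, among genes brighter than the median probe set. Hsd17b13 and Aldh1b1 were each nearest to the other (r = 0.982). Hal was nearest to the prostaglandin carrier Slco2a1 (r = 0.977) and to Aspg (0.970), and Cyp2f2 to Gnmt, glycine N-methyltransferase (0.976), and Ido2 (0.974). Pigr was nearest to Zcchc24 (0.981) and Dclk3 (0.978), Etnppl to Cox5b (0.969) and Ntrk2 (0.966), Uroc1 to Cd55 (0.944) and Acpp (0.939), and Ctsc to Peg3 (0.954) and Rnls (0.933). These values share the same 12 arrays and were picked as the highest, over tumours that lie in separate clusters. Within the 6 normal livers alone, r of these pairs ran from -0.447 for Hal and Aspg to 0.941 for Hal and Slco2a1. It was 0.507 there for Hsd17b13 and Aldh1b1. Among the nearest genes other than members, Gnmt is also on the list of serine, glycine and threonine genes, and it fell by 1.12 (limma adjusted p = 0.019).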

How the data were processed

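Total RNA from 6 HCC and 6 normal livers was amplified and given a biotin label, per the labels' protocols. The values deposited by the authors were linear intensities of 45101 probe sets, and their 2% trimmed mean was the same on all arrays. The summary method and the scan dates are not given in the sources used here. log2(intensity + 16) was quantile normalized, since the arrays did not share a median. The 64 control probe sets were left out, 932 probe sets naming several genes and 9160 naming none were not used, and the probe set with the highest mean stood for each of the 18193 genes. Other probe sets of the periportal genes are given beside it.

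Groups were compared with limma 3.58.1 in R 4.3.3 (lmFit and eBayes), two-sided, with Benjamini-Hochberg adjustment over all genes and a threshold of 0.05. The interaction with Y-linked signal and the absolute deviations from group medians were fitted likewise. The scripts were tested on simulated data. Promoter stretches came from RefSeq (GRCm38.p6). Figures used Python 3.11.15 and matplotlib 3.10.9.

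Named genes were all members, up to 3 genes a list that passed and differed most (or the smallest p), Glul, Axin2, Cyp2e1, Xist and the Y-linked genes, and the 2 genes nearest to each member by correlation. The members and lists were chosen with earlier results of these data known. Same-number samples had correlations of deviations from -0.0147 to 0.0778 and were not taken as pairs. Alternatives covered scaling, the pseudocount (1 and 64), probe set choice, filters, variance models, permutation, the replicate block and arrays left out. Leaving out HCC 1 and HCC 4 together was added after the data were seen.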

Additional observations from a re-analysis of the deposited data

Results flagged for a closer look

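The level of Aldh1b1 in normal 1, 12.14, stood apart from the other 5 normal livers, of which the next was 11.56. Gaps were examined in 16 groups of 6 arrays, and about 1 in 20 such groups shows one by chance. The difference between HCC and normal liver changed with Y-linked signal by 4.72 for Cyp2f2 and by 3.94 for Ctsc (limma interaction, adjusted p = 0.0249 and 0.0406), and both calls depend on single arrays and on the setting, as given with the processing alternatives. The tumours without Y-linked signal were HCC 1 and HCC 4 alone.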

How the results depend on the processing

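Cyp2f2, Etnppl, Pigr, Hal and Uroc1 were lower in HCC under every alternative run. Etnppl kept its call in all of them, Cyp2f2 lost it only at an adjusted p under 0.01, and Pigr lost it in 10 settings. The count of periportal genes called lower was 3, ran from 2 to 4 with each array left out, was 1 at an adjusted p under 0.01, and was 5 in the arrays without Y-linked signal. Hsd17b13, Aldh1b1 and Ctsc turned positive, without passing, with only the arrays with Y-linked signal (0.87, 0.66 and 1.02) and without HCC 1 and HCC 4 (0.82, 0.57 and 0.70). With each array left out, Hsd17b13 ran from -0.70 to 0.15 and Ctsc from -0.65 to 0.22. Hsd17b13 also turned positive without HCC 1 (0.10) or HCC 4 (0.15), and Ctsc without HCC 1 (0.22). Glul and Cyp2e1 turned positive in the arrays without Y-linked signal (0.87 and 0.13).

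The 2 interaction calls became 1 with a pseudocount of 1 or the mean of all probe sets, 0 with the replicate block (adjusted p = 0.546 for Cyp2f2 and 0.589 for Ctsc), and 0 to 6 with each array left out. The 0 calls of spread became 1 with the deposited scaling, 2 with a pseudocount of 64 and 4 with deviations from the group mean. HCC 6 had 1 gene above the range of normal livers with Y-linked signal, and 0 to 1 with each normal liver left out. Over all genes 1318 were lower and 1179 higher. The replicate block gave 839 lower, every probe set 1795 higher, the arrays with Y-linked signal 563 lower and 575 higher, those without 37 and 40, and an adjusted p under 0.01 gave 461 and 515. The block changed no call among the 8 genes between groups, but Mfsd2a, Cyp27a1, Slc38a4, Cebpa and Tcf7l2 lost theirs (adjusted p = 0.0516, 0.0621, 0.0597, 0.0527 and 0.112). Fewer arrays were fitted in the subsets; otherwise the cause was not tested.

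The number of arrays limits the precision. Etnppl's second probe set was close to the floor of 4 in HCC 2 and HCC 5 (4.36 and 4.21).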

Other observations

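Hsd17b11, the closest relative of Hsd17b13 and also a lipid droplet protein, was high where Hsd17b13 was low in HCC 1 and HCC 4 and low where it was high in HCC 2, HCC 3 and HCC 5, while both were below the normal range in HCC 6. It was chosen after its values were seen. Its level was 14.63 in HCC 1 and 14.30 in HCC 4, above the normal range of 13.23 to 13.72, and 12.36, 12.15 and 12.59 in HCC 2, HCC 3 and HCC 5, below it, as was HCC 6 at 12.91. Its difference between HCC and normal liver was -0.34 ± 0.40 (SE, limma adjusted p = 0.632), and its interaction with Y-linked signal had an adjusted p of 0.0421.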
